A study of Tetranychus urticae with 4 samples.

Results

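Of the 18020 genes listed for the two-spotted spider mite Tetranychus urticae, 404 lay in 74 unbroken rows of genes without a single sequencing read in adult females. Genes were ordered by the scaffold number and the serial number that make up each identifier (tetur, scaffold, g, serial). A gene is called silent here when its count was 0 in all 4 libraries, and a silent run is a stretch of at least 4 consecutive listed genes on 1 scaffold that were all silent. In all, 2143 genes were silent, which is 11.9% of those listed, and 15877 had at least 1 read. The members of runs were 18.9% of the silent genes and 2.24% of all genes. The other 1739 silent genes stood alone or in runs of 2 or 3. The members were chosen by their counts of 0 in these same libraries, so their silence is the rule itself and not a finding.

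Libraries came from adult females of the London strain, a laboratory strain of this plant-feeding mite. The proterosoma library was made from the dissected front bodies of 250 females, which carry the mouthparts and hold the salivary glands. The 3 whole-body libraries were each made from 100 intact females. Every library is thus a pool of animals, an intact body includes its own front body, and the proterosoma has no replicate. Whether the whole-body pools came from separate cultures is not given in the sources used here, so their spread may be technical. In a bulk pool, few expressing cells and little RNA per cell cannot be told apart.

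Genomes carry many genes that any given sex, stage or tissue does not transcribe, among them genes used only in embryos, juveniles, males or under particular conditions. Duplicated genes often sit side by side in tandem arrays, where copies can share both their regulation and their sequence. Closely similar copies also pose a technical problem, because a short read that aligns equally well to several copies is commonly left uncounted. The deposited files do not pair these identifiers with names, and 0 of them were found in the reference gene table. No gene is therefore named here by its product, and whether members of a run are copies of each other was not tested. How the counting treated reads with several alignments is not given in the sources used here. Scaffold positions were not used either, so neighbours are neighbours in the identifier list.

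The depth of the libraries sets how low an expression level would have been seen. Total counts were 19667380 for the proterosoma library and 23647775, 12356237 and 11630954 for whole-body replicates 1, 2 and 3. A count of 0 allows up to 3 reads, which is 0.153 CPM (counts scaled to a fixed number of counted reads) for a gene in the proterosoma library and 0.127, 0.243 and 0.258 CPM in the whole-body libraries. Over the 67302346 reads of all 4 libraries together the same limit is 0.0446 CPM for a gene. Since the 404 members were chosen for having 0 reads, that figure does not limit their summed level. These limits cover counting error only, as reads carry no molecular identifiers.

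Most runs were short and a few were long. There were 39 runs of 4 genes and 17 runs of 5, and together these 56 runs held 241 of the 404 members. Runs of at least 7 genes numbered 15 and held 145 members. The median run had 4 genes and the longest had 16. Just outside the rule were 79 runs of 3 genes on 37 scaffolds, and just inside were the 39 runs of 4 genes on 26 scaffolds. Serial numbers that did not end in 0 occurred in 11 of the 39 runs of 4 and in 21 of the 79 runs of 3.

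**Figure D1:**
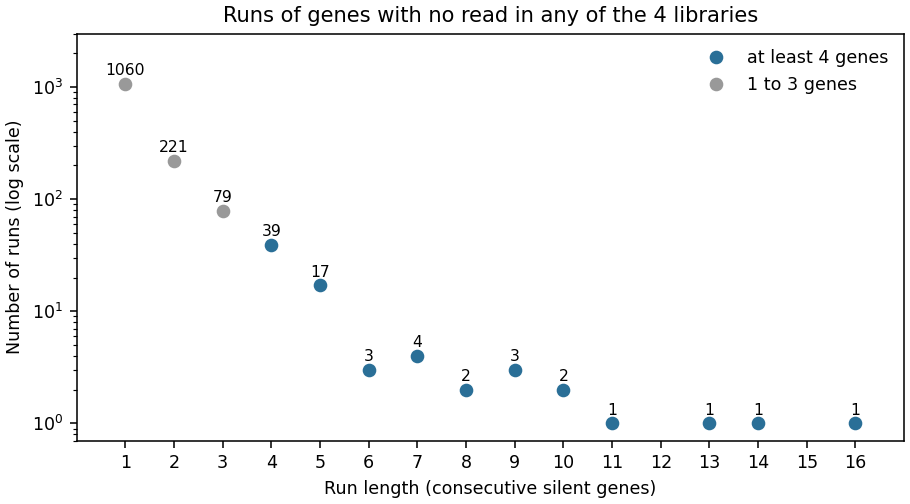
Number of runs (vertical axis, log scale) by the number of consecutive silent genes in a run (horizontal axis), with the number of runs printed at each point. Runs of at least 4 genes are blue and shorter ones grey; 1060 silent genes stood alone, 39 runs had 4 genes and 1 run had 16.

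A silent gene was followed by another silent gene more often than a gene with reads was. Of the 1993 silent genes with a next gene on the same scaffold, 709 had a silent one next (35.6%). Of the 15599 genes with reads and a next gene, 1301 did (8.34%). Among pairs in which both serial numbers ended in 0, the shares were 31.7% and 7.59%. These shares describe 1 gene list, and no test was made of them.

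The longest run held the 16 genes from tetur01g17064 to tetur01g17254, near the end of the list of scaffold 1, which has 1585 genes. The gene just before it had 1 read in the proterosoma library and 1, 1 and 0 reads in whole-body replicates 1, 2 and 3. The gene just after it had 0 proterosoma reads and 1, 0 and 0 whole-body reads. No library had more than 1 read of either neighbour.

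Scaffold 6 held the next longest pair of runs, at opposite ends of its 607 listed genes. The 14 genes from tetur06g00010 to tetur06g00160 open the scaffold. The gene after them had 77 proterosoma reads and 63, 23 and 4 whole-body reads, so that the whole-body libraries themselves differed widely. The 13 genes from tetur06g06803 to tetur06g06923 lie near its end. Before that run stood a gene with 3 proterosoma reads and 7, 3 and 4 whole-body reads. After it came a gene with 4118 proterosoma reads and 549, 348 and 313 whole-body reads. This last gene was well expressed in every library, so the change from silence to abundant reads took place between adjacent identifiers.

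Scaffold 5 showed a like step on the other side of a run. The gene before the 10 silent genes from tetur05g09405 to tetur05g09495 had 31 proterosoma reads and 1350, 678 and 604 whole-body reads. The gene after them had 4 proterosoma reads and no whole-body read. A further run of 8 genes on this scaffold, tetur05g00540 to tetur05g00610, had 1 read in all on each side, from whole-body replicate 1 before it and from the proterosoma library after it.

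Short scaffolds could be silent almost from end to end. The 11 genes from tetur59g00010 to tetur59g00110 were all but 2 of the 13 listed genes of scaffold 59. The gene after this run had 1 read, in whole-body replicate 1. On scaffold 42, the 10 genes from tetur42g00010 to tetur42g00150 were all but 1 of its 11 genes, and the remaining gene again had 1 read, also in whole-body replicate 1. On scaffold 117, the 9 genes from tetur117g00030 to tetur117g00110 were followed by no listed gene and preceded by one with 0 proterosoma reads and 1, 2 and 0 whole-body reads. Scaffold 193 had 4 listed genes, tetur193g00010 to tetur193g00040, and all 4 were silent, the only scaffold that a run filled.

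The other runs of 9 genes ran from tetur09g06860 to tetur09g06940 and from tetur13g04796 to tetur13g04876. The scaffold 9 run had a single read on each side, in whole-body replicate 3 before it and in the proterosoma library after it. Before the scaffold 13 run stood a gene with 0 proterosoma reads and 2, 1 and 0 whole-body reads, and after it a gene with 1 proterosoma read and no whole-body read. For the 10 longest runs, then, every flanking gene but 3 had fewer than 20 reads in each library.

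**Figure D2:**
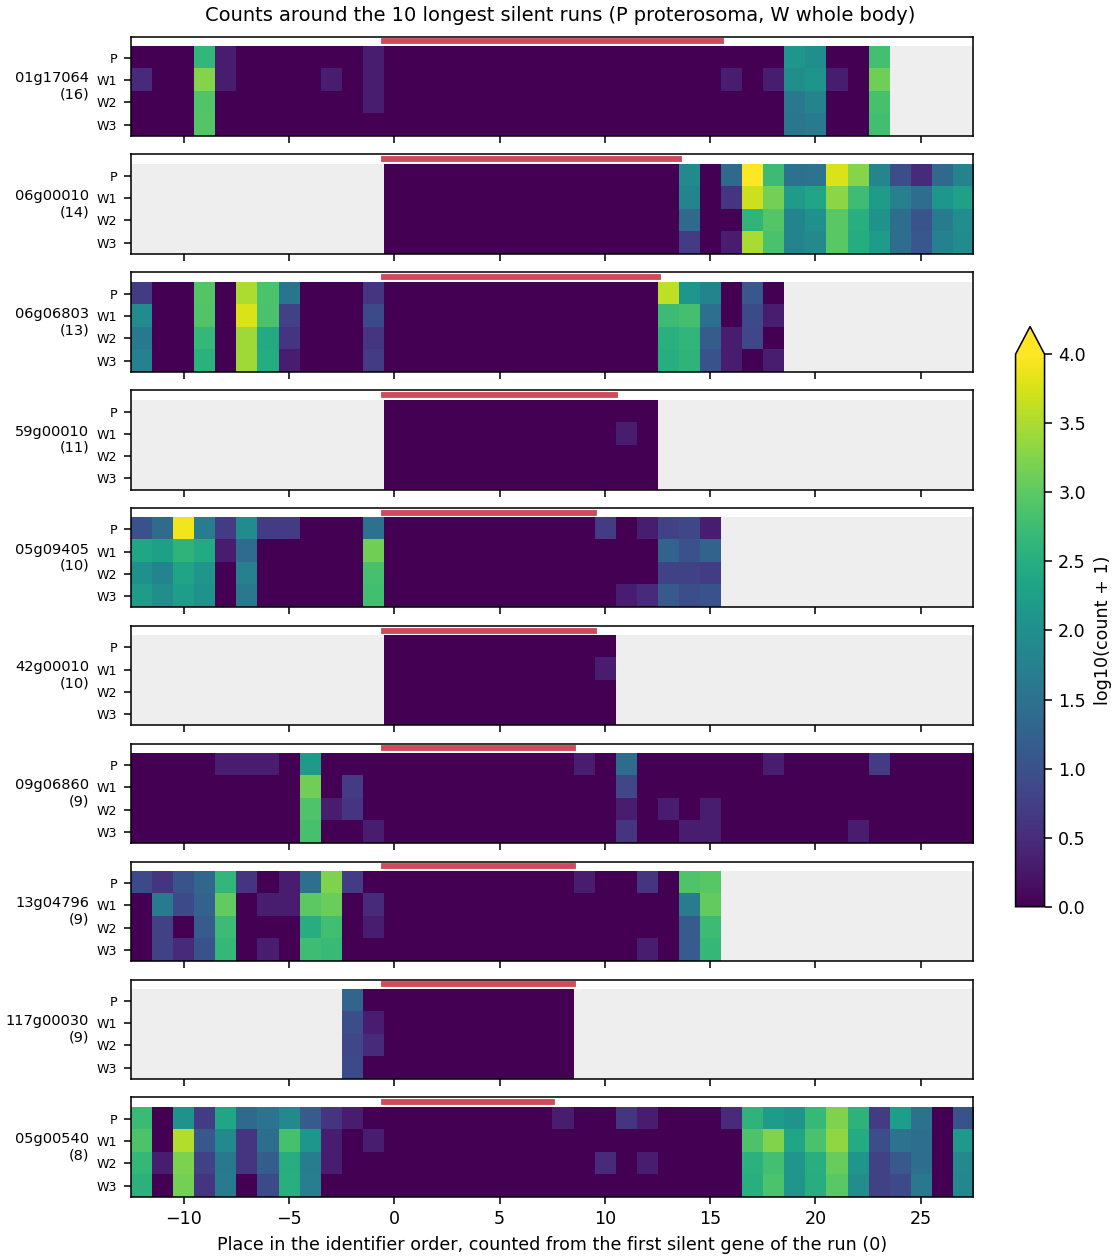
Counts around the 10 longest silent runs, 1 panel a run, labelled by the identifier of its first gene and its length in brackets. Columns are places in the identifier order counted from the first silent gene (0), rows are the proterosoma (P) and the whole-body libraries (W1 to W3), colour is log10(count + 1), the red bar marks the run, and pale grey means that the scaffold has no listed gene there. The run that starts at tetur01g17064 has neighbours with 1 to 3 reads in all, and the one that starts at tetur06g06803 is followed by a gene with 4118 proterosoma reads.

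Runs occurred on 37 of the 428 scaffolds, and 112 scaffolds had the 4 listed genes that a run needs. The 14 scaffolds with over 400 listed genes held 42 runs and 240 members, which is 59.4% of the members, against 61.4% of all genes. By contrast, the 384 scaffolds with at most 20 listed genes held 16.6% of the members and 5.07% of all genes. On those short scaffolds 34.7% of genes were silent, against 10.7% on the scaffolds with over 400 genes. Short scaffolds gave 12 runs with 67 members.

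Among long scaffolds the share of members differed, and no test was made of these differences. Scaffold 1 had the most members, 36 in 5 runs, or 2.27% of its 1585 genes, which is near the 2.24% of all genes. Scaffold 7 had 4 members in 1 run (0.522% of its 766 genes). Scaffold 9 had 34 members in 7 runs (4.76% of its 714 genes), and scaffold 24 had 26 members in 5 runs (8.93% of its 291 genes). Of the 21 scaffolds with at least 300 genes, 3 had no run. Of these, scaffold 11 had 31 silent genes among 605 (5.12%), and scaffold 16 had 49 among 386 (12.7%) without 4 in a row. The third was scaffold 20, with 26 silent genes among 309. On scaffold 39, which has 67 listed genes, 12 genes (17.9%) were members.

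Some silent runs also stood close to one another. Joining runs with at most 15 listed genes between them gave 11 stretches that held 29 runs and 154 members. The widest, tetur09g06749 to tetur09g07480, contained 5 runs. Of its 62 listed genes, 38 were silent (61.3%) and 17 more had 1 to 3 reads over the 4 libraries, although 1 gene inside it had 2944 reads. The stretch tetur24g02520 to tetur24g02963 also contained 5 runs, with 34 of 49 genes silent (69.4%) and a median of 1 read among the 15 others. The stretch tetur01g05240 to tetur01g05460 contained 3 runs, with 18 of 21 genes silent. Of the silent genes in these stretches, 25 of 38, 26 of 34 and 16 of 18 were members, in the order given. Their silent shares thus follow largely from the rule. How often runs would lie this close without any grouping was not tested.

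A few neighbouring runs were kept apart by 1 gene. Between the runs of 7 and 4 genes that span tetur01g05350 to tetur01g05460, the dividing gene had 0 proterosoma reads and 2, 0 and 0 whole-body reads. Between the runs of 8 and 4 genes that span tetur24g02887 to tetur24g02963, it had 1 proterosoma read and 0, 3 and 0 whole-body reads. Between the runs of 5 and 5 genes that span tetur28g02631 to tetur28g02771, it had 0 proterosoma reads and 0, 1 and 0 whole-body reads. None of these dividing genes had a read in more than 2 libraries.

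The last digit of the serial number, a feature of the identifiers, was other than 0 more often among members than among other genes. Most serial numbers end in 0, as in tetur01g00010, but 886 genes have one that does not. Of these 886 genes, 346 were silent (39.1%), against 1797 of the 17134 others (10.5%). They made up 31.7% of the members, 12.5% of the other silent genes and 3.40% of the genes with reads. Among the 886, 585 come after the last serial number ending in 0 on their scaffold, and 42.2% of these were silent. The rule orders genes by serial number and so lists these 585 together at the end of their scaffold. How much of their share among members comes from this order was not tested. When genes among the 886 did have reads they had few, with a median of 25 reads over the 4 libraries, against 844 for genes with reads whose number ends in 0. What sets these identifiers apart in the annotation is not given in the sources used here.

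The runs fell into 2 kinds by this feature. Only serial numbers ending in 0 occurred in 52 runs with 274 members. At least 1 other number occurred in 22 runs with 130 members, and 20 of these had no number ending in 0. The second kind included the longest run and 5 of the 15 runs of at least 7 genes. In the map of runs along scaffolds they lie mostly at the far end of the identifier list. With the 886 genes left out of the list, 52 runs with 274 members remained and the longest had 14 genes, the run that opens scaffold 6. If such numbers do not follow the order along the scaffold, runs of the second kind need not be neighbours in the genome.

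**Figure D3:**
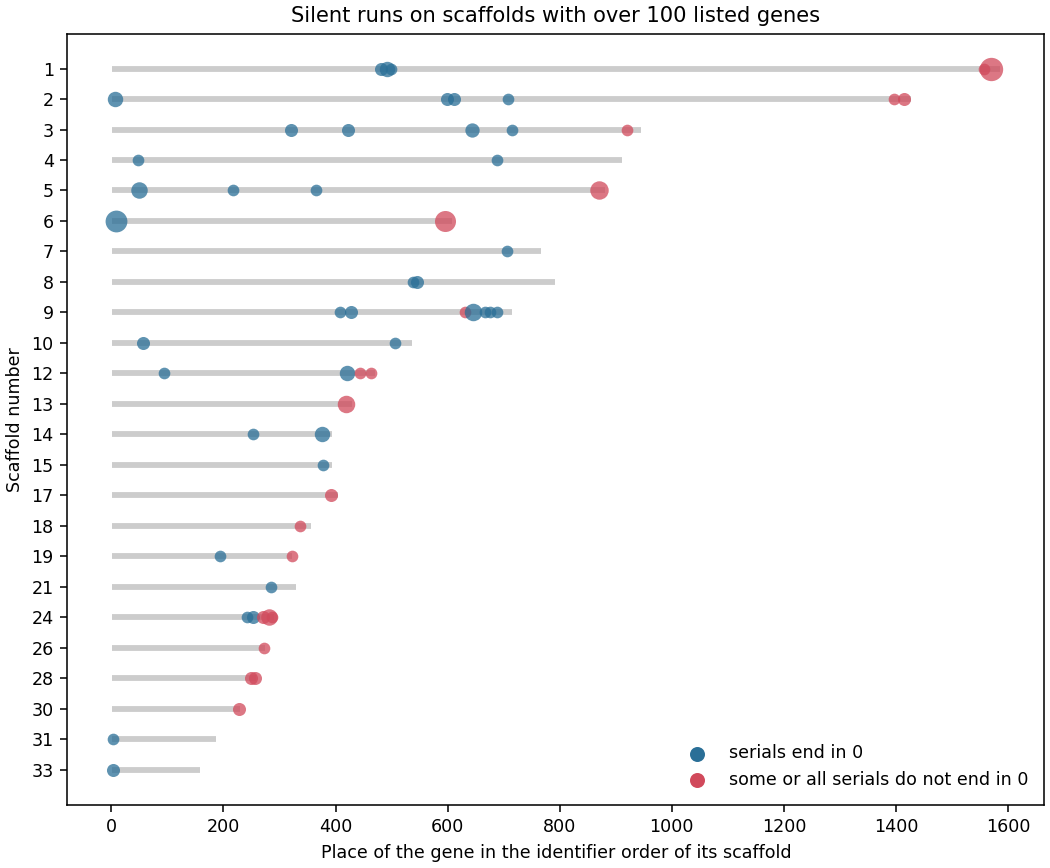
Silent runs on the scaffolds with over 100 listed genes that have a run. The horizontal axis is a gene's place in the identifier order of its scaffold, each grey bar is a scaffold, and each point is a run with an area proportional to its length. Points are blue where serial numbers end in 0 (52 runs in all) and red where some or all do not (22 runs in all). Both totals include runs on shorter scaffolds, which are not drawn.

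Runs were not marked out by skipped serial numbers. Inside runs, 27 of 330 steps between consecutive genes were larger than 10 (8.18%), against 8.08% over all neighbours in the list. A run started at the first listed gene of a scaffold in 9 cases and ended at the last in 6. These 14 runs, one of which fills its scaffold, held 87 members.

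The genes next to silent runs had few reads more often than other genes with reads, and some had many. The 74 runs had 133 flanking places within a scaffold, filled by 130 distinct genes, each with at least 1 read by the rule. Over the 4 libraries together, 60 of the 130 had 1 to 3 reads (46.2%), against 1134 of the 15877 genes with reads (7.14%). More than 500 reads were counted for 25 flanking genes (19.2%), against 55.4% of genes with reads. The median flanking gene had 4 reads and the median gene with reads had 772. In CPM with TMM scaling (a correction of library size for differing composition), the median flanking gene had 0.137 CPM in the proterosoma library. In the whole-body libraries the medians were 0.0370, 0.0737 and 0.0802 CPM, all under the level of 3 reads.

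Genes with few reads became more frequent beside longer runs. A count of 1 to 3 reads was found for 57.7% of the 26 genes beside runs of at least 7, which are included in the 130 above. It was found for 29.7% of 148 genes beside runs of 3, 21.4% of 392 beside runs of 2, and 17.4% of 1802 beside single silent genes. Beside runs with only serial numbers ending in 0 it was 42.9% of 91 genes, and beside the other runs 53.8% of 39 genes. No test was made of this order, and a gene can stand beside more than 1 run.

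**Figure D4:**
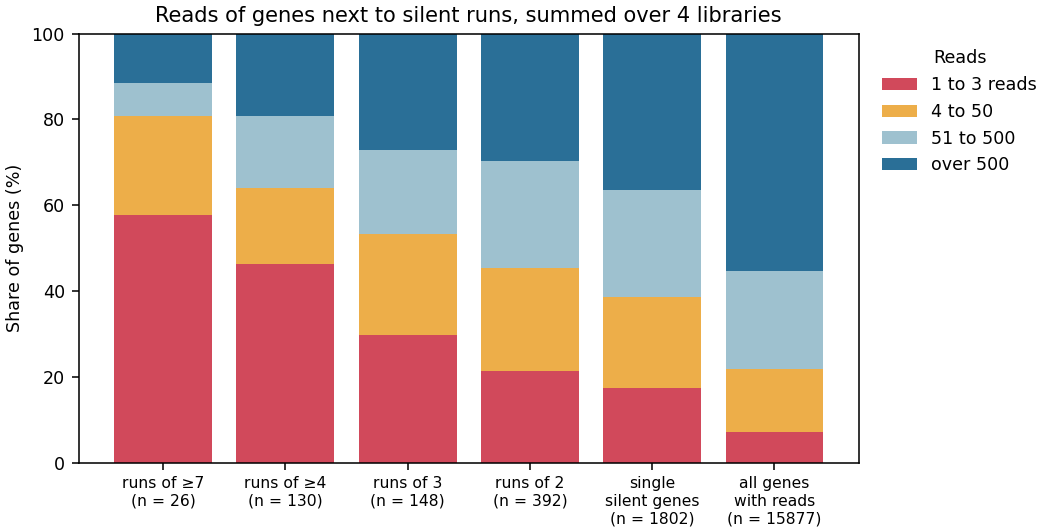
Share of genes (vertical axis, %) by the number of reads summed over the 4 libraries, for genes next to silent runs of different lengths and for all genes with reads; n is the number of genes, and the runs of at least 4 include those of at least 7. Genes with 1 to 3 reads make up 57.7% of those beside runs of at least 7 and 7.14% of all genes with reads.

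The low surroundings reached beyond the first neighbour. At the second place from a run, 46 of 126 genes were silent (36.5%), and at the tenth place 22 of 106 were (20.8%). At 50 places it was 6 of 85 (7.06%), against 11.9% of all genes. Members of other runs were not left out, so part of these silent shares is members chosen by the rule. Short scaffolds also drop out as the distance grows, and 34.7% of genes on scaffolds with at most 20 listed genes were silent. Among genes with reads at those distances, the share with 1 to 3 reads was 30.0% at the second place, 16.7% at the tenth and 6.33% at 50 places. The median total count of genes with reads was 56.5 at the second place, 214.5 at the fourth, 90.5 at the fifth, 443.5 at the tenth, 239.5 at 20 places and 854 at 50 places, so it did not rise steadily.

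**Figure D5:**
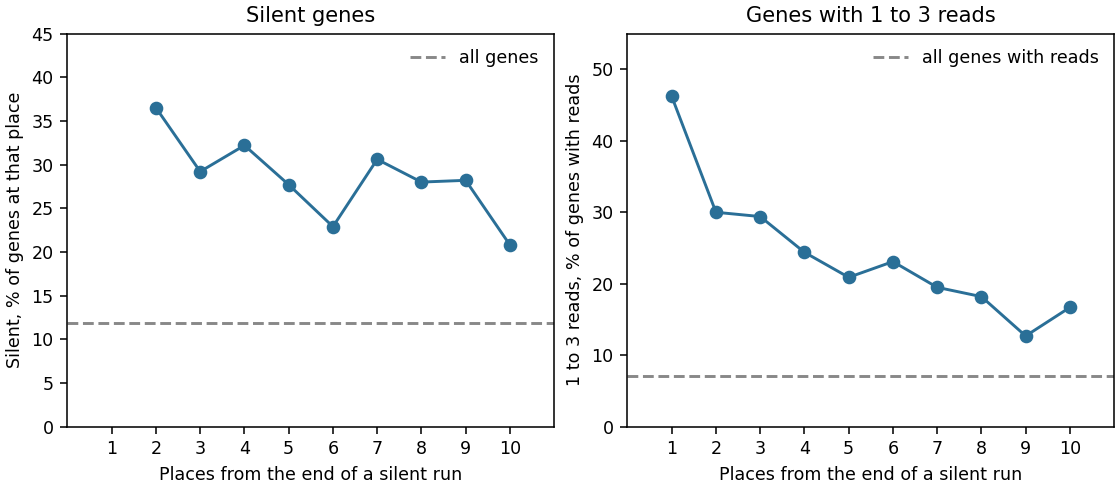
Left, share of silent genes (%) by the number of places from the end of a silent run, from the second place on, since the first has reads by the rule. Members of other runs are included. Right, share of genes with 1 to 3 reads among genes with reads (%), from the first place on; dashed lines give all genes (11.9%) and all genes with reads (7.14%), and every point shown, up to 10 places, lies above its line; at 50 places, not drawn, the shares were 7.06% and 6.33%.

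The single reads were spread over the libraries. Of the 38 flanking genes with 1 read in all, 10 had it in the proterosoma library and 12, 8 and 8 in whole-body replicates 1, 2 and 3. Among all 549 genes with 1 read the numbers were 138 for the proterosoma and 204, 116 and 91 for the whole-body replicates. Whole-body replicate 1, the deepest library, held the most in both sets.

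Some runs nevertheless lay between genes with many reads. Of the 60 runs with a flanking gene on both sides, 17 had 1 to 3 reads on both, 20 on 1 side and 23 on neither. Both flanking genes had at least 100 reads in all for 8 runs with 38 members. The 6 genes from tetur39g00370 to tetur39g00420 had the most reads on both sides. The gene before them had 426 proterosoma reads and 2494, 890 and 1377 whole-body reads, and the gene after them 437 proterosoma reads and 1151, 569 and 625 whole-body reads. The 4 genes from tetur03g10153 to tetur03g10156 lay between a gene with 1423 proterosoma reads and 1482, 818 and 735 whole-body reads and one with 264 proterosoma reads and 381, 168 and 174 whole-body reads. All libraries had reads on both sides of these runs and none inside them.

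The flanking genes with enough reads to test were split between the body parts much as other genes were. Members have no reads and could not be tested. Of the 130 flanking genes, 51 passed edgeR's expression filter (39.2%), against 83.6% of genes with reads. The 79 that did not pass had a median of 2 reads in all and at most 36. In the proterosoma library 22 of the 51 were higher than in whole bodies (43.1%, against 41.0% of all 13278 genes tested) and 20 were lower (39.2%, against 40.4%) at an adjusted p under 0.05 (edgeR quasi-likelihood test). At least 2-fold higher were 18 (against 31.6% of all genes tested) and at least 2-fold lower 17 (against 30.0%). These shares are near those of all genes. The median log2 fold, proterosoma over whole body, was -0.06 for the 51 genes and -0.03 for all genes tested, with quartiles of -1.77 and 1.90 against -1.40 and 1.57. With library size alone as the scaling, 17 were higher and 24 lower, so that 41.5% of the calls were higher, against 52.4% with TMM. Calls over all genes tested shifted likewise, with 37.5% of them higher under library size alone and 50.4% under TMM. That scaling moves the log2 fold of all genes by a median of -0.57.

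The flanking gene with the largest rise was tetur03g03420, just after the 5 silent genes from tetur03g03350 to tetur03g03400. It had 133 reads in the proterosoma library and 5, 2 and 4 in whole-body replicates 1, 2 and 3, so the lone proterosoma value lies far above all whole-body values. The TMM-scaled proterosoma level was 9.10 CPM, against a whole-body mean of 0.218 ± 0.0911 CPM (SD, n = 3). The log2 fold was 5.40 ± 0.31 (standard error), and the edgeR adjusted p was 1.66e-05. The most abundant flanking gene that rose was tetur02g06650, just before the 5 silent genes from tetur02g06660 to tetur02g06700. It had 2546 proterosoma reads and 2254, 1180 and 1170 whole-body reads. The proterosoma level was 174 CPM, against a whole-body mean of 88.1 ± 5.25 CPM (SD, n = 3), which gives a log2 fold of 0.98 ± 0.09 (standard error) and an edgeR adjusted p of 0.000104. Its proterosoma value also lay outside the whole-body range.

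The flanking gene with the largest fall was tetur55g00100, just after the 4 silent genes from tetur55g00050 to tetur55g00090. It had 1 read in the proterosoma library and 271, 105 and 90 in the whole-body replicates. Whole bodies thus had 128 times the proterosoma level, with an exact 95% counting interval of 22.9 to 5085 (edgeR adjusted p = 9.39e-05). The most abundant flanking gene that fell was tetur01g05480, just after the 4 silent genes from tetur01g05430 to tetur01g05460. It had 5341 proterosoma reads and 20315, 8360 and 9545 whole-body reads, the most of any flanking gene. Its proterosoma level of 365 CPM stood against a whole-body mean of 711 ± 82.5 CPM (SD, n = 3), with a log2 fold of -0.96 ± 0.18 (standard error) and an edgeR adjusted p of 0.00302. The second most abundant flanking gene, just before the 4 silent genes from tetur09g04430 to tetur09g04460, had 5872 proterosoma reads and 13260, 7111 and 8264 whole-body reads. It did not pass the test, with a log2 fold of -0.48 (edgeR adjusted p = 0.0670). Since there is 1 proterosoma library, none of these differences has a replicate check on that side.

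The authors' deposited table of their own comparison lists 15877 genes, as many as had at least 1 read here, and 0 of the 404 members. By the rule members had 0 reads and flanking genes at least 1, so which of them it lists is no separate finding. All 130 flanking genes are in the authors' deposited table, where 20 are higher in the proterosoma (15.4%, against 30.7% of all genes listed) and 18 lower (13.8%, against 30.9%) at an adjusted p under 0.05. That table includes the flanking genes with few reads, which the expression filter left out above. In the authors' deposited table the log2 fold of tetur03g03420 is 5.23 with an error of 0.70, and that of tetur55g00100 is -6.21 with an error of 1.08. In the authors' deposited table tetur02g06650 has a log2 fold of 0.97 with an error of 0.15, and tetur01g05480 of -0.97 with an error of 0.18.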

How the data were processed

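RNA was sequenced from 1 proterosoma library and 3 whole-body libraries, with strand-specific preparation per the labels' protocols. The submitters' processing notes name HTSeq 0.6.0, STAR 2.5.0b and DESeq2 1.6.3. Which build, annotation release, strand setting and handling of reads with several alignments were used is not given in the sources used here. The deposited gene table holds raw read counts. The authors' deposited DESeq2 table holds a mean normalised signal, log2 fold changes with errors, p-values (raw and adjusted) and a test score. Its header names no numerator; of the 8369 genes that passed the filter below and had a deposited log2 fold beyond 1 in size, 100% had the sign of the fold fitted here, proterosoma over whole body.

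Identifiers were sorted by scaffold and serial number with Python 3.11.15, and runs of at least 4 genes with 0 counts were listed; no sample column was left unused. No shuffle or other chance test of the runs was made. The members and all lists were chosen with earlier results of these data known. The largest number of genes between joined runs, the 100-read limit and the classes of read number, scaffold size and serial ending were set after the data were seen. All genes were tested with edgeR 4.0.16 in R 4.3.3 (quasi-likelihood F test, TMM, edgeR's expression filter by group, Benjamini-Hochberg adjustment over 13278 genes), with 2 residual and 3.82 prior degrees of freedom, all from whole bodies; the proterosoma library was assumed to vary like them. The standard error is the log2 fold divided by the square root of F. Run finding and test were tried on simulated data. The flanking genes named are, in each direction, the called one with the highest mean and the called one with the largest fold (mean 1 CPM or more); runs named first are the 10 longest, and the others were picked after their values were seen. Whole-body libraries were no repeats of each other (chi-square per degree of freedom 14.7 to 26.4). Alternatives covered run length, the count limit, list order, scaling, filter, the DESeq2 1.42.0 Wald test and leaving out whole-body libraries in turn.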

Additional observations from a re-analysis of the deposited data

How the results depend on the processing

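The number of runs and members follows the limits chosen. A minimum length of 3, 5 or 6 gave 153, 35 or 18 runs with 641, 248 or 163 members. Allowing at most 1, 3 or 10 reads over the 4 libraries gave 112, 151 or 217 runs with 688, 1018 or 1538 members, and the longest run then had 20, 27 or 31 genes. Ignoring the proterosoma library gave 110 runs with 623 members. Bridging 1 gene with reads at a time, as often as this occurred in a run, gave 102 runs with 665 members. Without each whole-body library in turn there were 81 to 88 runs with 461 to 495 members and a longest run of 16 to 19 genes. Breaking runs at serial steps over 10 left 64 runs with 333 members. Chosen after seeing the data, leaving out scaffolds of at most 20 genes left 62 runs with 337 members. A mean count of at least 50 left 33 flanking genes tested, 14 of them higher and 15 lower, where 4373 were higher and 4345 lower of all 10347 genes tested. With 3 flanking genes on each side, 149 were tested, 56 higher and 62 lower, and beside runs of at least 6 genes 10 were tested, 4 higher and 6 lower; the shares over all 13278 genes tested are those in the results (41.0% higher and 40.4% lower). The median level of flanking genes, taken in each whole-body library and averaged over these libraries, was 0.0636 CPM, and 0.279 CPM with 3 genes on each side. Without each whole-body library, 21 flanking genes were higher in each fit, and 17 to 21 were lower. All 35 log2 folds of the 4 named flanking genes under the alternatives kept direction and call. For each gene, 1 of these is the fold of the main fit read at an adjusted p under 0.01, so only its call could change. The gene tetur03g03420 has no value at a mean count of at least 50. No paired analysis was possible because only 1 of the 2 body parts has replicates. A gene with a level of up to 0.0446 CPM over all libraries could still have a count of 0, and the effect of read sharing between copies was not tested.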

Other observations

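Some genes with no read in whole bodies had reads in the front body, and the reverse, but many rested on a single read. Of the 2567 genes with no whole-body read, 424 had reads in the proterosoma library, and 138 of these had only 1. A further 1283 genes with no proterosoma read had whole-body reads. Of these, 204, 116 and 91 genes had only 1 read in all, in whole-body replicates 1, 2 and 3. Intact bodies include the front body, so single reads do not show that a gene was silent in either sample. When up to 10 reads over the 4 libraries were allowed, the longest run had 31 genes, tetur12g04743 to tetur12g05036 on scaffold 12. It takes in the silent runs tetur12g04773 to tetur12g04803 and tetur12g04956 to tetur12g04986, of 4 genes each. When up to 1 read was allowed, the longest run had 20 genes, tetur24g02757 to tetur24g02958 on scaffold 24. These settings were compared with the others without any test.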
